A study of Arabidopsis thaliana with 16 samples.

Results

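The far-red response to dexamethasone (DEX) was described from 8 of the 16 arrays of a study of Arabidopsis thaliana seedlings: the 4 arrays labelled as far-red with DEX and the 4 labelled as far-red with mock, chosen by their sample titles. The seedlings carry FHY3p:FHY3-GR in the fhy3-4 mutant, which means that the transcription factor FHY3 is present as a fusion to the steroid-binding part of the glucocorticoid receptor, made from the FHY3 promoter. Both groups had grown for 4 days in continuous far-red light, and for the last 2 h received 10 µM DEX or an equal volume of its solvent, ethanol (mock). The other 8 arrays, 4 with DEX and 4 with mock from seedlings kept in darkness, were used to share one estimate of the spread and to ask where the far-red response differed from the dark one. Each array is an Affymetrix ATH1 array, which reads each transcript with a group of short probes called a probe set.

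FHY3 and its relative FAR1 are transcription factors derived from transposase genes. They are known for their role in far-red signalling through the photoreceptor phytochrome A, in which they activate FHY1 and FHL, whose products carry the photoreceptor into the nucleus. The fusion protein stays in the cytoplasm without steroid and moves into the nucleus once DEX is given, so the comparison asks which transcripts change soon after that move in seedlings already in far-red light. All 4 groups carry the fusion, and seedlings without it given DEX were not analysed here, so effects of DEX itself and of nuclear FHY3 cannot be told apart. FHY3 is not paired with a probe set here, so the labels could not be checked by the targeted gene. Whole seedlings were sampled, so fewer cells of a type and less RNA per cell cannot be told apart.

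The design text calls the 4 arrays of a group independent biological replicates. Array medians lay between 6.60 and 6.68 on the log2 scale, arrays of one group correlated at 0.9956 to 0.9981, and 0 arrays held identical values. On the first principal component of the 8 far-red arrays, with 23.8% of their variance, the DEX arrays lay between 4.08 and 13.63 and the mock arrays between -14.28 and -2.95, with no overlap. The 3′ minus 5′ log2 signal, a sign of RNA quality, averaged 1.27 in DEX and 1.19 in mock for ubiquitin, 0.998 and 1.16 for GAPDH, and 1.44 and 1.41 for actin. Exact two-sided permutation p values were 0.114, 0.114 and 0.686 (0.171, 0.171 and 0.686 after adjustment over the 3). The smallest p that 4 against 4 arrays allow is 0.0286, so these tests could hardly pass, and the part of RNA quality in the results was not tested. The spike control ThrX-3 read 5.21 in far-red mock replicate 1 and at least 7.22 in the other far-red mock arrays.

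DEX was followed mainly by rises. Of the 22746 probe sets tested, 209 were higher (0.919% of those tested) and 27 lower (0.119%) with DEX than with mock at an adjusted p under 0.05 by limma, together 236 (1.04%), so that 88.6% of the calls were rises. The rises had a median log2 change of 0.46 and ran from 0.26 to 2.26, and the falls had a median of -0.36 and ran from -0.70 to -0.26. A change of at least 2-fold was found for 12 probe sets that were higher and for 0 that were lower, and a change of at least 1.5-fold for 67 higher and 2 lower. At an adjusted p under 0.001 the counts were 65 higher and 2 lower.

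The excess of rises was seen among the called changes and not over all probe sets. Over all probe sets tested the median log2 change was -0.02, and 42.4% of them lay above 0. At an unadjusted p under 0.05, 1040 were higher and 1240 were lower. All 4 DEX arrays lay above all 4 mock arrays for 207 of the 209 rises, against 3.14% of all probe sets tested, and below them for 25 of the 27 falls, against 3.27%. Those shares follow from how calls are made and are given as a description. The count of falls was less steady than that of rises: it was 55 with a trended and robust prior, 17 with the far-red arrays alone, and 15, 16 and 16 without far-red DEX replicate 1, far-red DEX replicate 3 and far-red mock replicate 1.

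**Figure D1:**
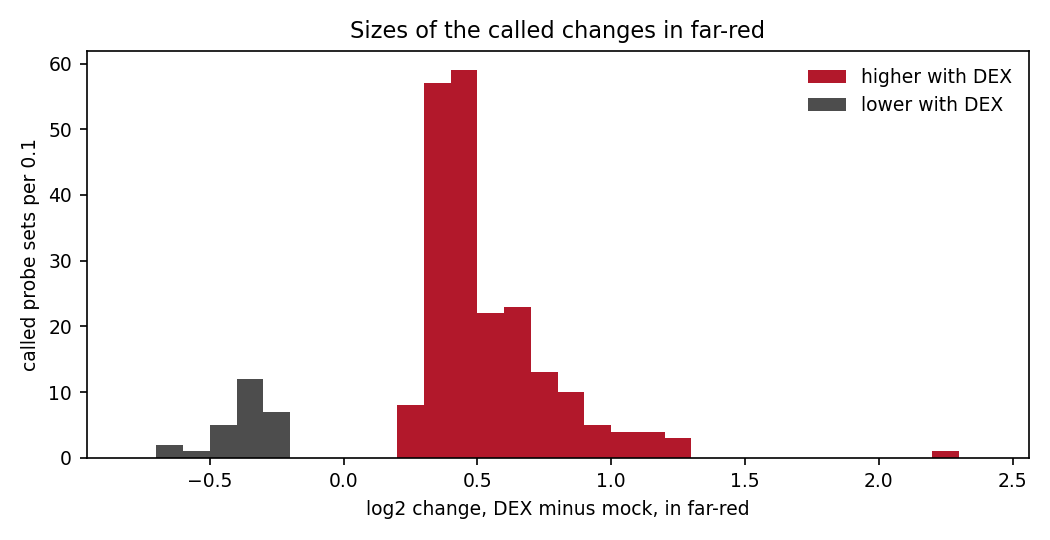
Histogram of the log2 change (DEX minus mock in far-red, horizontal axis) of the 236 called probe sets, with the number per 0.1 on the vertical axis, rises in red and falls in grey. The 209 rises reach 2.26, and the 27 falls end at -0.70.

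The rises fell on 111 genes with a probe set of their own, and the falls on 16. Of the 111 raised genes, 13 have a symbol in the annotation and 98 carry a locus tag only. The sources used here give no product for the latter, so they are named by locus without a role. Among all 13355 genes measured this way, 0.831% were higher and 0.12% lower. Among the 1557 genes with a symbol the shares were 0.835% and 0.128%.

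AT2G41990 rose most, 4.78-fold. Its log2 signal was 8.75, 8.86, 8.97 and 8.94 in the 4 DEX arrays, against 6.55, 6.53, 6.89 and 6.52 in the 4 mock arrays (log2 change 2.26 ± 0.13, SE, n = 4 each; adjusted p = 2.95e-09). The lowest DEX array was far above the highest mock array, which was replicate 3. AT1G22910 rose 2.35-fold, with 8.72, 8.68, 8.76 and 8.63 in DEX, against 7.47, 7.39, 7.55 and 7.45 in mock (log2 change 1.23 ± 0.07, adjusted p = 1.19e-09). Both groups were tight for this gene and well separated.

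AT1G32190 rose 2.32-fold, with 7.67, 7.37, 7.64 and 7.49 in DEX, against 6.38, 6.14, 6.47 and 6.34 in mock (adjusted p = 3.5e-08). AT2G42900 rose 2.22-fold, with 7.18, 7.23, 7.31 and 7.28 in DEX, against 5.93, 6.23, 6.45 and 5.79 in mock (adjusted p = 2.39e-06). Its DEX arrays were close to each other while its mock arrays spread more widely, without reaching them. AT1G51090 rose 2.19-fold, with 7.76, 7.92, 8.23 and 8.19 in DEX, against 6.52, 6.76, 6.73 and 7.56 in mock (adjusted p = 0.000707). Mock replicate 4 stood near the DEX arrays, and the groups were still apart.

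AT3G57930 rose 2.13-fold, with 8.37, 8.15, 7.61 and 7.88 in DEX, against 7.18, 6.74, 6.59 and 7.14 in mock (adjusted p = 0.000203). AT5G12050 rose 2.03-fold, with 9.83, 9.74, 9.69 and 9.69 in DEX, against 8.75, 8.60, 8.69 and 8.81 in mock (adjusted p = 1.34e-06). These were the last named genes to reach a 2-fold change.

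Below them came AT2G39130 (log2 change 0.99 ± 0.10), AT1G77480 (0.99 ± 0.11), AT4G35380 (0.95 ± 0.12), AT2G44770 (0.86 ± 0.07), AT1G15010 (0.83 ± 0.11) and AT4G14500 (0.82 ± 0.07). AT2G24560 (0.82 ± 0.14), AT2G24360 (0.81 ± 0.06), AT3G03360 (0.81 ± 0.07) and AT3G25870 (0.80 ± 0.10) followed. For all of these the DEX and mock arrays were apart, and the adjusted p values by limma ran from 8.79e-08 for AT2G24360 to 0.00336 for AT2G24560. The other 3 of the 20 largest rises, IQD22, IQD23 and tny, have symbols and are described next.

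**Figure D2:**
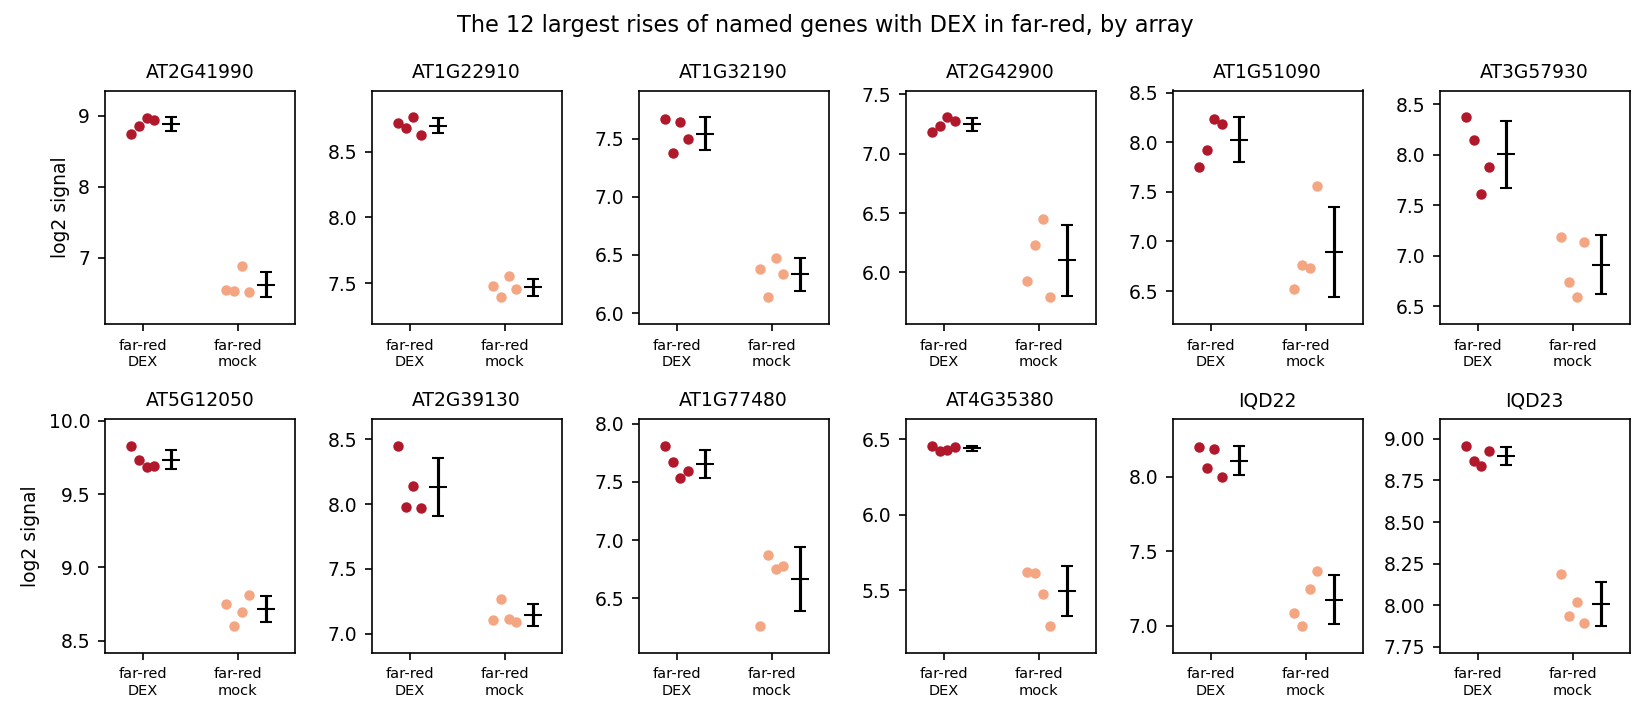
Log2 signal (vertical axis, its own range in each panel) of the 12 genes with the largest rises, in the 4 far-red DEX arrays and the 4 far-red mock arrays. Points are arrays, and the black mark is the mean with its SD (n = 4). In each panel all DEX points lie above all mock points, by the widest margin for AT2G41990, and mock replicate 4 of AT1G51090 (7.56) comes nearest to its DEX arrays.

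Families were formed by symbol, so the 98 raised genes with a locus tag only could enter none. Among families of at least 5 measured genes formed this way, the IQD genes held the most raised members. They encode plant calmodulin-binding proteins, many of which associate with microtubules, and they are taken to link calcium signals to the cytoskeleton. Of 15 measured, 3 rose (IQD22, IQD23 and IQD24) and 0 fell, where 0.831% of all measured genes rose and 0.12% fell. The median of the 15 was below 0, as the other 12 ran from -0.24 for IQD28 to 0.07, and 1 of those 12 lay above 0.

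IQD22 gave 8.20, 8.05, 8.18 and 7.99 in DEX, against 7.08, 6.9999, 7.24 and 7.37 in mock (log2 change 0.93 ± 0.09, adjusted p = 1.49e-06). IQD23 gave 8.96, 8.86, 8.84 and 8.93 in DEX, against 8.19, 7.93, 8.02 and 7.89 in mock (0.89 ± 0.07, adjusted p = 2e-07). For both genes the lowest DEX array stood clear of the highest mock array. IQD24 gave 5.34, 5.08, 5.53 and 5.54 in DEX, against 4.61, 4.89, 4.51 and 4.94 in mock (0.64 ± 0.11, adjusted p = 0.00392). Its groups came close, since DEX replicate 2 was little above mock replicate 4. The uncalled members with the smallest p were IQD28, at -0.24 (adjusted p = 0.102), and IQD26, at -0.11 (adjusted p = 0.713).

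In darkness 2 of the 15 IQD genes were higher with DEX, IQD22 by 0.98 and IQD23 by 0.64 on the log2 scale, and 0 were lower. In dark IQD24 had a change of 0.16 (adjusted p = 0.548). It was dim there, with log2 signals of 4.17 to 4.23 in DEX and 3.86 to 4.32 in mock, well below the median of any array. The difference between the far-red and dark responses was not called for any of the 15, and for IQD24 it was 0.48 (adjusted p = 0.158).

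Among transcription factors with a symbol, MYBC1, tny, BZIP17 and SPT rose. MYBC1 encodes a MYB-type factor known as a negative regulator of freezing tolerance. It gave 9.94, 9.98, 9.87 and 9.97 in DEX, against 9.20, 8.999, 9.26 and 9.27 in mock (log2 change 0.76 ± 0.07, adjusted p = 1.34e-06), with tight groups far apart. The annotation's tny is TINY, a factor of the AP2/ERF family known for restraining growth and for responses to drought. It gave 8.99, 8.98, 9.11 and 9.18 in DEX, against 8.22, 8.20, 8.31 and 8.39 in mock (0.78 ± 0.14, adjusted p = 0.00524), also apart. With far-red mock replicates 1 and 4 left out together, a setting chosen after seeing the data, its adjusted p was 0.0543. Its relative TINY2, chosen after its values were seen, had a change of 0.12 (adjusted p = 0.721).

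BZIP17 encodes a membrane-anchored bZIP factor that is released when the endoplasmic reticulum is under stress. It gave 7.82, 7.72, 7.67 and 7.77 in DEX, against 7.26, 7.06, 7.25 and 7.15 in mock (0.56 ± 0.08, adjusted p = 0.000203), and all DEX arrays lay above all mock arrays. Of the 14 measured genes with a bZIP symbol it alone was raised, where 0.831% of all measured genes rose, and the other 13 ran from -0.12 to 0.11. BZIP28, which acts in the same stress response, had 0.11 (adjusted p = 0.642), and bZIP52 had -0.12 (adjusted p = 0.706). BZIP60, another factor of that response, chosen after its values were seen, had -0.01 (adjusted p = 0.978).

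SPT encodes SPATULA, a basic helix-loop-helix factor that acts in carpel development, seed germination and the restraint of leaf and cotyledon growth. It gave 9.31, 9.19, 9.18 and 9.32 in DEX, against 8.66, 8.71, 8.81 and 8.87 in mock (0.49 ± 0.07, adjusted p = 0.000782), with no overlap. ALC (ALCATRAZ), its close relative in fruit development, was chosen after its values were seen. ALC gave 6.33, 6.47, 6.40 and 6.37 in far-red DEX, against 6.51, 6.38, 6.22 and 6.40 in far-red mock, which overlap (0.01 ± 0.10, adjusted p = 0.978). In darkness ALC rose by 1.05 ± 0.10 (adjusted p = 2.25e-07), while SPT rose by 0.41. The difference between far-red and dark was called for ALC (-1.04, adjusted p = 0.000132) and not for SPT (0.07, adjusted p = 0.847).

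The receptors of the hormone gibberellin are encoded by GID1A, GID1B and GID1C. Of the 3, GID1B rose, where 0.831% of all measured genes rose. The 3 are named because 1 of them was called, so that share says nothing of the family. GID1B gave 7.60, 7.27, 7.49 and 7.53 in DEX, against 7.08, 6.86, 6.996 and 7.25 in mock (0.42 ± 0.09, adjusted p = 0.0123), and DEX replicate 2 was only just above mock replicate 4. Without far-red DEX replicate 1 its adjusted p was 0.0638, the highest of the 8 fits that leave out 1 far-red array, and it also missed the threshold without mock replicate 2 and in the fit of the 8 far-red arrays alone (adjusted p = 0.0594). GID1A had a far-red change of 0.25 (adjusted p = 0.115) and fell by 0.24 in darkness (adjusted p = 0.0385), and the difference of 0.49 was called (adjusted p = 0.00649). GID1C had 0.20 in far-red (adjusted p = 0.456), with overlapping groups.

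SWEET proteins are sugar transporters of the cell and vacuole membranes. Of the 16 measured by symbol or synonym, 2 rose, SWEET1 and SAG29 (SWEET15), and 0 fell, beside 0.831% and 0.12% of all measured genes. The other 14 ran from -0.27 to 0.43, and 4 of them lay above 0. SAG29, a gene known for its high level in ageing leaves, gave 9.51, 9.36, 9.36 and 9.50 in DEX, against 9.11, 8.96, 9.03 and 8.95 in mock (0.42 ± 0.08, adjusted p = 0.0119). SWEET1, a glucose transporter, gave 8.11, 8.20, 8.41 and 8.39 in DEX, against 7.90, 7.77, 7.89 and 7.99 in mock (0.39 ± 0.09, adjusted p = 0.0469). For both genes the groups were apart, by little for SWEET1.

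SWEET2, a vacuolar sugar transporter, had a change of 0.43, as large as that of SAG29, but missed the threshold (adjusted p = 0.0702). SWEET2 passed it with the far-red arrays alone, with a trended and robust prior and with array weights (lowest adjusted p = 0.00335). SWEET11, which exports sucrose towards the phloem, had -0.27 (adjusted p = 0.0893). SWEET11 passed the threshold with that prior and without far-red mock replicate 2 (lowest adjusted p = 0.0194). Without far-red DEX replicate 1 SAG29 had an adjusted p of 0.0551. SWEET1 lost its call under quantile normalisation, under median centring and without any 1 far-red array other than DEX replicate 1, with an adjusted p of up to 0.183 without DEX replicate 3.

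UDP-glycosyltransferases (UGT genes) attach sugars to hormones and other small molecules. Of the 47 measured, 1 rose and 0 fell, a share near the 0.831% of all measured genes that rose, so the count says nothing of the family. The other 46 ran from -0.20 to 0.42. The riser, UGT76C2, attaches glucose to cytokinins. It gave 7.81, 7.70, 7.86 and 7.86 in DEX, against 7.65, 7.38, 7.46 and 7.14 in mock (0.40 ± 0.09, adjusted p = 0.0193). DEX replicate 2 was barely above mock replicate 1, and the call was lost without DEX replicate 1, 3 or 4 or mock replicate 2 or 4 (adjusted p up to 0.0795, without DEX replicate 3) and in the fit of the 8 far-red arrays alone (adjusted p = 0.0916). UGT76C1, a cytokinin glucosyltransferase whose locus number is next to it and which was chosen after its values were seen, had 0.26 (adjusted p = 0.219). UGT72B3 had 0.42 (adjusted p = 0.0831) and UGT74D1 had 0.27 (adjusted p = 0.157).

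**Figure D3:**
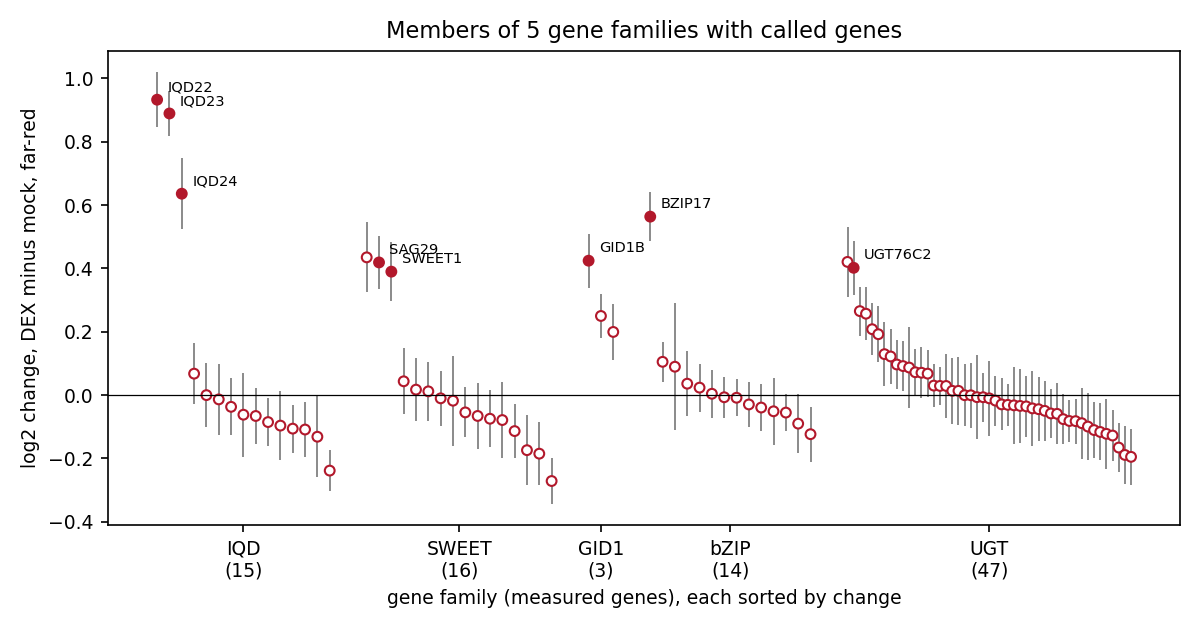
Log2 change (DEX minus mock in far-red, vertical axis) of each measured gene of 5 families, sorted by change within each family, with the number of genes in brackets. Families were formed by symbol, and for SWEET by symbol or synonym. Filled points were called, open points were not, and bars are standard errors. The 3 called IQD genes stand apart from the other 12, which lie between -0.24 and 0.07, while 14 of 16 SWEET genes and 46 of 47 UGT genes are open points.

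HWS (HAWAIIAN SKIRT), an F-box gene known for its part in organ growth and floral organ separation, gave 6.95, 6.67, 6.62 and 6.53 in DEX, against 6.25, 6.11, 6.42 and 6.01 in mock (0.50 ± 0.11, adjusted p = 0.0248). NDC1, a type II NAD(P)H dehydrogenase of plastids and mitochondria, gave 7.87, 7.70, 7.85 and 7.56 in DEX, against 7.09, 7.35, 7.52 and 7.49 in mock (0.39 ± 0.09, adjusted p = 0.0469). The groups of both genes were apart by a small gap. HWS lost its call without DEX replicate 1, 2 or 3 or mock replicate 1, 2 or 4, and NDC1 without DEX replicate 1, 2 or 3 or mock replicate 1 or 2, with the highest adjusted p, 0.126 and 0.185, without DEX replicate 1. Quantile normalisation, median centring and the fit of the 8 far-red arrays alone (adjusted p = 0.14) also ended the call of NDC1. The related dehydrogenase genes NDB1, NDB2, NDB3 and NDB4, chosen after their values were seen, ran from -0.03 to 0.15 and none was called. The calmodulin-like genes CML23 and CML37, also chosen after their values were seen, had 0.57 (adjusted p = 0.0559) and 0.44 (adjusted p = 0.0528). Of the 7 measured genes with a CML symbol 0 were higher and 0 lower, with changes from -0.11 to 0.57 and a median of 0.03.

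Genes were put into families by the letters that open their symbols, so members under other symbols or with a locus tag only are missed. SPT, a basic helix-loop-helix gene, is thus not counted with the 5 genes of the BHLH stem. Of 49 families with at least 5 measured genes, 45 families, with 473 genes, held no called gene, and their medians ran from -0.21 to 0.06. The 4 with a call were IQD, SWEET, bZIP and UGT. SWEET was counted here by symbol alone, without SAG29, which gave 1 raised gene of 14. Over all 49 families 6 of 563 genes were raised (1.07%) and 0 lowered, close to the 0.831% and 0.12% over all measured genes, so the many families without a call are no result about families. FHL, one of the 2 measured among 16 light, clock and related genes always looked up, gave 10.55, 10.62, 10.48 and 10.52 in DEX, against 10.97, 10.74, 10.76 and 10.94 in mock. All DEX arrays lay below all mock arrays, yet the change of -0.31 ± 0.13 missed the threshold (adjusted p = 0.39). In darkness FHL fell by 0.98 (adjusted p = 2.49e-05), and the difference was not called (0.66, adjusted p = 0.0612). The uncalled far-red change and the dark fall both ran opposite to the activation of FHL by FHY3 described above. The reason was not tested. The other of the 2 measured, HEMB1, of chlorophyll and haem synthesis, had 0.03 in far-red (adjusted p = 0.907).

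Falls were fewer and smaller. AT3G48970 fell most among the named genes, 1.42-fold, with 10.05, 10.10, 10.03 and 10.04 in DEX, against 10.74, 10.68, 10.51 and 10.30 in mock (log2 change -0.50 ± 0.08, adjusted p = 0.00238). AT3G54000 fell 1.41-fold, with 6.81, 6.97, 7.14 and 7.01 in DEX, against 7.30, 7.38, 7.61 and 7.64 in mock (-0.50 ± 0.09, adjusted p = 0.00464). The arrays of both genes did not overlap. ATL8, which encodes a RING-finger protein of the ATL ubiquitin ligase family, gave 8.22, 7.98, 7.998 and 8.23 in DEX, against 8.61, 8.50, 8.41 and 8.60 in mock (-0.42 ± 0.08, adjusted p = 0.00586), again without overlap. Its family members ATL63 and ATL4H had -0.19 (adjusted p = 0.307) and -0.16 (adjusted p = 0.467).

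B120, which encodes a lectin receptor kinase, gave 5.39, 5.47, 5.75 and 5.48 in DEX, against 6.06, 5.95, 5.74 and 5.96 in mock (-0.40 ± 0.09, adjusted p = 0.0191). Its groups overlapped through replicate 3 of each, and the call was lost without DEX replicate 1, 2 or 4 or mock replicate 1, 2 or 4 (adjusted p up to 0.0918, without DEX replicate 1) and in the fit of the 8 far-red arrays alone (adjusted p = 0.0713). B70 and B160, of the same symbol stem, had 0.13 and -0.07 and were not called. AT2G28200 (-0.40), AT3G61550 (-0.40), AT5G63620 (-0.39), AT1G70990 (-0.39), AT1G27670 (-0.43) and AT5G64870 (-0.36) completed the 10 largest falls. AT1G27670 was not called without DEX replicate 1 or 3 or mock replicate 1, 2 or 3, nor AT5G64870 without DEX replicate 1, 2 or 3 or mock replicate 1, 2 or 4, with adjusted p values up to 0.132 and 0.177, both without DEX replicate 3. In the fit of the 8 far-red arrays alone AT5G64870 had an adjusted p of 0.114. With far-red mock replicates 1 and 4 left out together, a setting chosen after seeing the data, ATL8 (adjusted p = 0.144), AT2G28200 (0.063), AT3G61550 (0.0978) and AT1G70990 (0.209) were not called.

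Markers of particular organs and cell types were looked up beside these changes. The annotation used here pairs few of them with a probe set: 2 of 11 for shoot and leaf, 0 of 14 for root, 2 of 10 for seed and embryo, 1 of 5 for guard cells, 0 of 5 for vascular tissue and 0 of 3 for epidermis. None of the measured ones was called. The leaf markers RCA and PSAN had changes of 0.01 and -0.03, and the seed storage gene PAP85 had -0.27 (adjusted p = 0.795). With so few measured, a part of cell composition in the results was not tested.

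Most rises were seen in darkness as well. Darkness and far-red share no array in these contrasts, but they share the estimate of the spread of each probe set. A low estimate favours a call in both lights, so the 2 sets of calls are not independent. In darkness DEX was followed by 2.34% of all probe sets higher and 3.56% lower. Of the 209 far-red rises, 126 were also higher in darkness, 4 were lower and 79 were not called. The 126 had a median log2 change of 0.54 in far-red and 0.71 in dark, and 94 of them changed more in dark. Of the 27 far-red falls, 10 were also lower in darkness, 2 were higher and 15 were not called.

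Fewer rises differed between the lights by the test of the difference than lacked a call in darkness. For the 79 rises without a call in dark, the median log2 change was 0.39 in far-red and 0.05 in dark, a gap that their selection favours. The difference between the responses was called for 24 of them and not for the other 55. Over all 209 rises the difference was positive for 28, negative for 14 and not called for 167, while over all probe sets 1.7% were called positive and 0.448% negative. Of the 27 falls, 7 had a called negative difference and 0 a positive one. The difference uses the same far-red arrays that made the calls. Its counts among the rises and falls thus lean in the direction of the call and are a description.

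**Figure D4:**
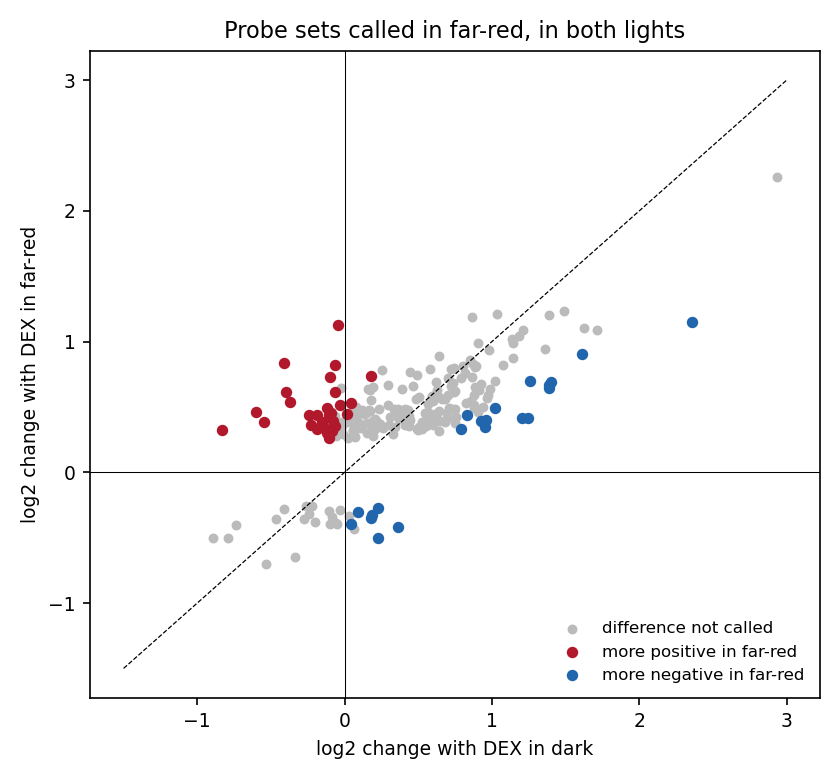
Log2 change with DEX in far-red (vertical axis) against that in dark (horizontal axis) for the 236 probe sets called in far-red, with a dashed line where both are equal. Red points had a called difference that was more positive in far-red, blue points one that was more negative, and grey points none. Most rises are grey and lie to the right of 0, while the red points lie near or left of 0 in dark.

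By gene, 62 of the 111 raised genes were also higher in dark, 2 were lower and 47 were not called, and the difference was positive for 14 and negative for 5. Of the 20 largest rises 16 were also higher in darkness, the exceptions being AT1G51090, AT1G15010, AT2G24560 and tny. The gene tny had 0.26 in dark (adjusted p = 0.406), and its difference of 0.53 was not called (adjusted p = 0.244). Of the 10 largest falls AT3G54000 and B120 were also lower in dark.

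The 8 called genes with the largest differences between far-red and dark fell into several patterns. AT1G15010 rose with DEX in far-red, with 10.50, 10.50, 10.43 and 10.64 in DEX against 9.62, 9.74, 9.68 and 9.70 in mock. In dark it gave 6.30, 5.96, 6.10 and 6.52 in DEX against 6.49, 6.71, 6.41 and 6.90 in mock, a fall of 0.41 ± 0.11 (adjusted p = 0.0246) with overlapping groups. The difference was 1.24 ± 0.15 (95% interval 0.92 to 1.56, adjusted p = 7.4e-05), and the log2 signal was higher in every far-red array than in any dark array.

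AT5G46710 likewise changed in opposite directions. It gave 9.92, 10.08, 10.05 and 10.15 in far-red DEX against 9.59, 9.56, 9.68 and 9.84 in far-red mock (0.38 ± 0.09, adjusted p = 0.0388). In dark it gave 8.26, 8.15, 8.47 and 8.48 in DEX against 8.91, 8.70, 8.93 and 9.03 in mock (-0.55 ± 0.09, adjusted p = 0.000322). Groups were apart in both lights, and the difference was 0.93 (adjusted p = 0.000184). The far-red call was lost under quantile normalisation, under median centring and without any 1 far-red array other than DEX replicate 1 and mock replicate 4 (adjusted p up to 0.146, without DEX replicate 4).

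AT1G51090 and AT2G24560 rose in far-red and were not called in dark, where AT1G51090 had 5.93, 5.46, 5.74 and 5.94 in DEX against 5.96, 5.82, 5.55 and 5.92 in mock. For AT2G24560 the dark values were 4.10, 3.52, 3.87 and 3.97 in DEX against 4.13, 3.80, 3.71 and 4.07 in mock. These signals were dim, well below the median of any array, and whether a dark response could be read at that level was not tested. Dark groups of both genes overlapped, and the differences were 1.17 (adjusted p = 0.00896) and 0.88 (adjusted p = 0.0217). The difference for AT2G24560 missed the threshold in 4 of the fits that leave out 1 array, those without far-red DEX replicate 3, far-red mock replicate 2 and dark mock replicates 1 and 4, with an adjusted p of up to 0.0563.

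AT1G48100 gave 8.19, 8.01, 8.03 and 7.93 in far-red DEX against 7.43, 7.46, 7.67 and 7.44 in far-red mock (0.54 ± 0.12, adjusted p = 0.0232). In dark its change was -0.37 (adjusted p = 0.0745), and the difference was 0.91 (adjusted p = 0.00326). Far-red groups were apart, yet the far-red call was lost without DEX replicate 1, 2 or 3 or mock replicate 1, 2 or 4 (adjusted p up to 0.103, without DEX replicate 1).

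ATL8, lower with DEX in far-red, was higher in dark, with 8.50, 8.39, 8.39 and 8.32 in DEX against 7.97, 8.16, 7.93 and 8.11 in mock (0.36 ± 0.08, adjusted p = 0.00569). The difference was -0.78 (adjusted p = 0.000273), and groups were apart in both lights.

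SAG29 and AT2G42900 rose in both lights, and by more in dark. SAG29 had 9.43, 9.38, 9.50 and 9.28 in dark DEX against 7.95, 8.41, 8.12 and 8.13 in dark mock, a change of 1.24 against 0.42 in far-red (difference -0.82, adjusted p = 0.000325). AT2G42900 had 8.64, 8.81, 8.73 and 8.86 in dark DEX against 6.32, 6.37, 6.28 and 6.63 in dark mock, a change of 2.36 against 1.15 in far-red (difference -1.21, adjusted p = 0.000126). With DEX, SAG29 reached similar log2 signals in both lights, while its mock arrays were higher in far-red than in dark.

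**Figure D5:**
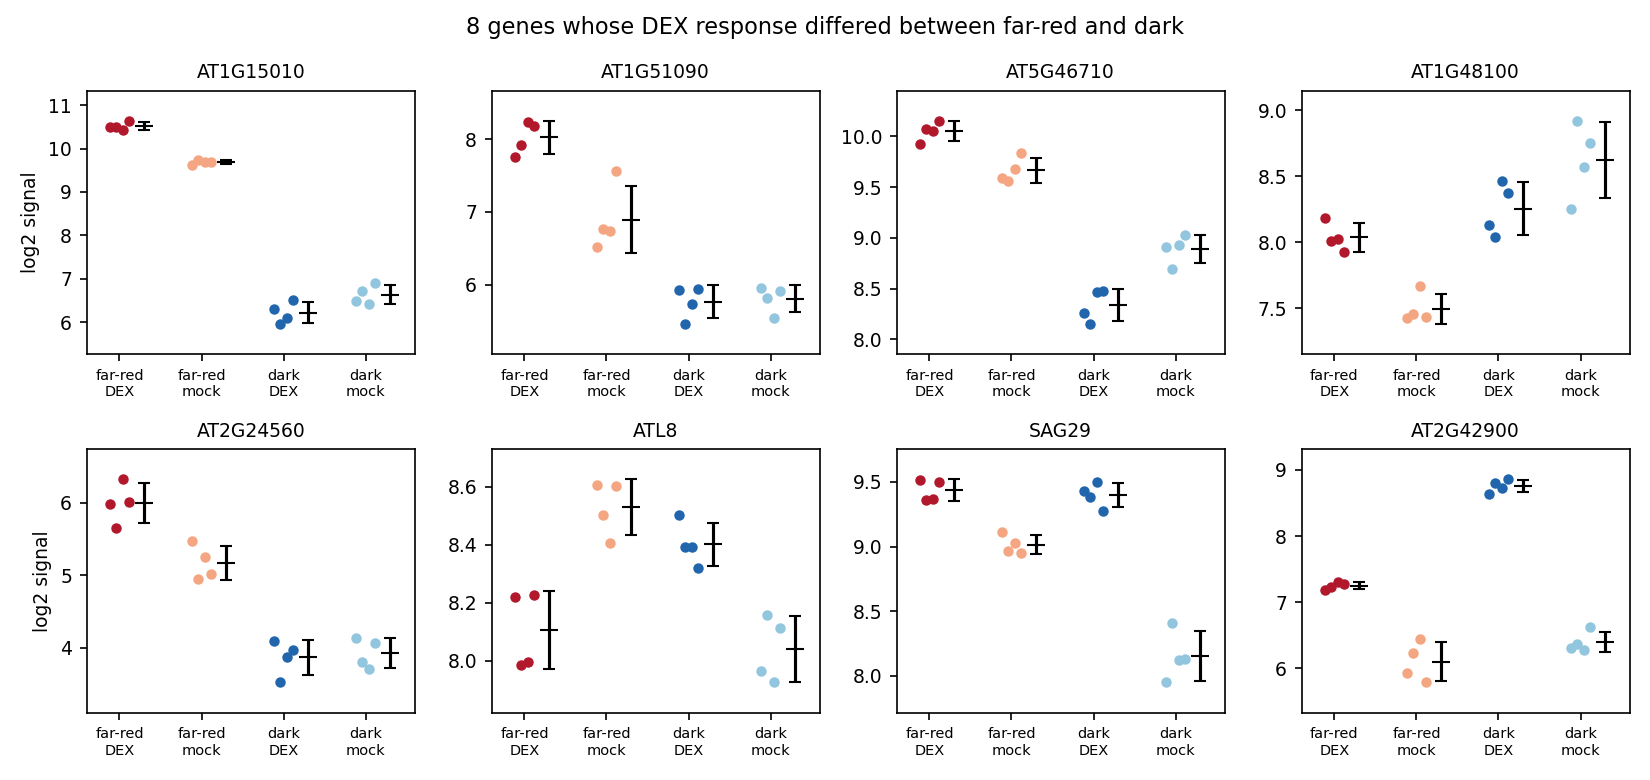
Log2 signal (vertical axis, its own range in each panel) of the 8 called genes with the largest difference in DEX response between far-red and dark, in far-red DEX, far-red mock, dark DEX and dark mock arrays. Points are arrays, and the black mark is the mean with its SD (n = 4). ATL8 is lower with DEX in far-red and higher in dark, and SAG29 has close DEX levels in both lights over unequal mock levels.

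Neighbouring genes on the chromosome were compared as well. Of 5849 adjacent pairs of protein-coding genes with both measured, 105 held at least 1 raised gene, and in 3 of these both had risen (2.86%). That is a share of pairs, and the 0.831% of all measured genes that rose is a share of genes. The 2 shares are unlike and cannot be set against each other, and no test of the neighbours was made. The pairs, chosen after their values were seen, were AT4G14490 with AT4G14500 (log2 changes 0.47 and 0.82), AT5G01780 with AT5G01790 (0.63 and 0.42), and AT5G62350 with AT5G62360 (0.39 and 0.48). AT4G14490 was dim, with log2 signals of 4.07 to 4.39 in far-red DEX and 3.58 to 3.92 in far-red mock, well below the median of any array. BZIP17 and MYBC1 have 2 protein-coding genes between them. The first pair was also higher in dark (0.34 and 1.07), as was the second (0.91 and 0.61). In the third, the dark changes were 0.08 (adjusted p = 0.733) and -0.10 (adjusted p = 0.747), and neither difference was called. Leaving out 1 array ended the following calls, with the highest adjusted p and its array given for each: AT4G14490 (0.057 without far-red mock replicate 2), AT5G01790 (0.0964 without the same array), AT5G62350 (0.0819 without far-red mock replicate 1) and AT5G62360 (0.159 without far-red DEX replicate 4).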

How the data were processed

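Log2 signals per probe set were taken from the series' value table as the authors deposited them. The submitters' processing notes name RMA and affy, with no version or setting, and how probe sets were defined is not given in the sources used here. Of the table's 22810 probe sets, 64 are controls and were dropped, which left 22746 to test. The platform annotation pairs 13513 of those with 1 gene and 503 with several, and 8730 are unnamed here. Symbols came from a RefSeq table, used for names and neighbours only. Each gene is shown by its brightest probe set. Since no background level or detection call is given, the number of arrays limits the precision.

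Groups and replicate numbers came from the sample titles. A linear model with a mean for each of the 4 groups was fitted to all 16 arrays (limma 3.58.1 under R 4.3.3, default lmFit and eBayes, 19.65 degrees of freedom). P values are two-sided and adjusted by Benjamini and Hochberg over all 22746 probe sets, and every adjusted p of a gene is from this fit unless a setting is named. Called means an adjusted p under 0.05. On simulated data the fit recovered 80 of 100 probe sets changed by 0.5 and 100 of 100 changed by 1 (log2) in the far-red contrast over 22746 probe sets. For the difference of responses it recovered 46 and 96 of 100. It made 10 false calls in the far-red contrast and 9 for the difference. The simulated noise was normal and independent, with an equal spread in all arrays for each probe set. Arrays of unequal quality and variation shared between probe sets were not simulated, so error rates in the real data may differ.

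The genes named are the 20 largest rises, the 10 largest falls, up to 5 called genes of each family with up to 2 uncalled ones of smallest p, the 8 largest differences from dark, and 16 genes always looked up, of which 2 were measured. These lists and rules were chosen with earlier results of these data known. A planned sorting by product keywords was set aside because the tables used here hold no products, and families by symbol stem took its place. Promoter motifs were not analysed here. Alternatives were the arrays fitted, the variance prior, quantile normalisation, median centring, a filter on the dimmest 25% of probe sets, the probe set type, array weights, a replicate block and leaving out each array. Far-red DEX and mock arrays with the same replicate number had correlated deviations of 0.22, -0.03, 0.05 and -0.10, so the numbers were not taken to pair samples.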

Additional observations from a re-analysis of the deposited data

Results flagged for a closer look

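Among the genes named, 118 groups of 4 arrays were tested for 1 array far from the others, and 6 stood out, where chance flags about 1 in 20. In AT2G41990, far-red mock replicate 3 was highest at 6.89, with the next at 6.55, and in AT1G48100 the same array was highest at 7.67, with the next at 7.46. Far-red mock replicate 2 was highest in AT2G39130 (7.27, next 7.11) and in AT5G63620 (11.35, next 11.28), and lowest in AT3G61550 (7.27, next 7.38). In BZIP28, far-red DEX replicate 1 was lowest at 8.69, with the next at 8.79.

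The DEX response differed between far-red and dark, by the test of the difference itself, for 12 of the genes named. It was more positive in far-red for AT1G15010 (1.24), AT1G51090 (1.17), AT5G46710 (0.93), AT1G48100 (0.91), AT2G24560 (0.88) and the gibberellin receptor gene GID1A (0.49). It was more negative in far-red for AT2G42900 (-1.21), SAG29 (-0.82), ATL8 (-0.78), AT3G48970 (-0.73), the sucrose exporter gene SWEET11 (-0.51) and AT5G63620 (-0.44). GID1A and SWEET11 were not called in far-red themselves.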

How the results depend on the processing

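No result named in the text changed direction under the alternatives run. The 209 far-red rises and 27 falls became 181 and 17 with the far-red arrays alone, 247 and 55 with a trended and robust prior, 109 and 16 over unique single-gene probe sets (fewer were tested), and 183 and 23 with the replicate block. Leaving out 1 array gave 145 to 187 rises and 15 to 36 falls. An alternative chosen after seeing the data left out the far-red mock arrays with the lowest array weights, replicates 1 (0.613) and 4 (0.578), and gave 152 and 14. For the difference from dark, 386 positive and 102 negative calls became 197 and 43 over unique single-gene probe sets, 501 and 158 with array weights, and 374 and 90 with the replicate block. Leaving out 1 array gave 292 to 515 positive and 76 to 154 negative, the highest negative counts being 154 without dark mock replicate 2 and 153 without far-red mock replicate 4. Causes of these shifts were not tested. The replicate block ended the far-red calls of B120, HWS and NDC1, the far-red arrays alone those of GID1B, UGT76C2, NDC1, B120 and AT5G64870, and quantile normalisation and median centring each those of SWEET1, NDC1 and AT5G46710. Leaving out mock replicates 1 and 4 together ended those of tny, ATL8, SAG29, SWEET1, HWS, NDC1, B120, AT1G27670, AT1G48100, AT1G70990, AT2G28200, AT3G61550, AT5G46710 and AT5G64870.

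Of the 42 called genes named by the rule, 26 kept the far-red call in all 17 other settings. Without each far-red array in turn, 66 of the 111 raised and 8 of the 16 lowered genes kept it. SWEET2, SWEET11 and UGT72B3 passed the threshold in some settings, with lowest adjusted p of 0.00335, 0.0194 and 0.0186. The fit with only the groups compared was not run for the difference, which needs all 16 arrays, and the promoter motif shares were not run.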
